A study of Mus musculus with 55 samples.

Results

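The 9 synaptic vesicle cycle genes described here were taken by gene symbol: the synapsin genes Syn1, Syn2 and Syn3, the priming factor gene Unc13a, the calcium sensor gene Syt1, the fusion genes Snap25 and Vamp2, and Nsf and Synj1, whose products act after fusion. Of the 9, 8 had a probe set of their own, out of 19938 genes with a named probe set on the array. These 8 genes held 10 probe sets, 3 of them for Unc13a, for which the probe set with the highest mean was used. All 8 had a mean level above the filter of 6.44 on the log2 scale, and so were among the 14949 genes tested. The only probe set annotated to Vamp2 is annotated to Ubr3 as well, so no value is given for Vamp2, and every count below is over 8 genes.

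RNA from the cerebellum of C57Bl/6 mouse pups, taken at postnatal day 22, was hybridised to 55 arrays of the Affymetrix Mouse Gene ST 1.0 type, each of which gives 1 log2 level per probe set. The pups had been injected under the skin every day from postnatal day 4 to day 21 with DMSO vehicle or with CPO at 0.35 or 0.5 mg/kg/day. CPO is chlorpyrifos oxon, the product that the liver makes from the insecticide chlorpyrifos and an inhibitor of acetylcholinesterase, although 1 label field writes the injected compound as chlorpyrifos. Paraoxonase 1, the product of Pon1, is a blood enzyme that breaks CPO down. In the order vehicle, 0.35 and 0.5 there were 4, 5 and 3 arrays labelled KO (Pon1-/-), 4, 5 and 5 of Q192 (tgHuPON1Q192), 4, 5 and 5 of R192 (tgHuPON1R192), and 6, 6 and 3 of WT (Pon1+/+). Q192 and R192 carry forms of a human PON1 transgene that differ in a single amino acid, and the labels state neither the promoter of the transgene nor the state of the mouse gene in these animals. The labels give no sex and do not say that each array is a separate animal, so a p-value here covers no more than the spread among these arrays, which may be technical.

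In a nerve terminal, vesicles filled with transmitter are held in a reserve by synapsins, which coat the vesicle surface. Munc13-1, the product of Unc13a, makes docked vesicles ready to fuse, synaptotagmin 1 (Syt1) triggers fusion when it binds calcium, and SNAP-25 and VAMP2 form the SNARE bundle that joins the membranes. NSF then takes spent SNARE bundles apart, and synaptojanin 1 (Synj1), a lipid phosphatase, helps to strip the clathrin coat from vesicles that are retrieved. In the cerebellum these proteins serve the terminals of parallel, climbing and mossy fibres and those of inhibitory neurons.

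Promoter sequence is shown for 4 genes that the results turn on: Syn1, Syn2 and Nsf, whose levels varied together most closely from array to array, and Unc13a, which passed in the comparisons of WT at 0.5. The sequences are the 250 bases before the gene's start in RefSeq's table for GRCm38.p6, read along the gene, and for Syn2, which has 2 starts there, the one farthest upstream was taken. Syn1 is at chrX:20920919-20921168 on the minus strand, Syn2 at chr6:115134652-115134901 on the plus strand, Nsf at chr11:103954057-103954306 on the minus strand and Unc13a at chr8:71671758-71672007 on the minus strand. Capitals mark matches, on either strand, to the cyclic AMP response element TGACGTCA, its core TGACG, the E-box CACGTG, the GC box GGGCGG or the CAAT box CCAAT.
Syn1: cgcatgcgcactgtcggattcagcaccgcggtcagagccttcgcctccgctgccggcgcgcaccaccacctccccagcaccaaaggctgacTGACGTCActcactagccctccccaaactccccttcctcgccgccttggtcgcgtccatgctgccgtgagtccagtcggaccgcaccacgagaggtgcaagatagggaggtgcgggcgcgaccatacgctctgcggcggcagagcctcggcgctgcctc
Syn2: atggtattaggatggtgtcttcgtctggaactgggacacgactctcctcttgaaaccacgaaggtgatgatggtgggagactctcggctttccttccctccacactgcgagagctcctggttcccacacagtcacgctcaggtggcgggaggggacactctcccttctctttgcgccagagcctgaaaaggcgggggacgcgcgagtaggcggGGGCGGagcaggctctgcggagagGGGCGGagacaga
Nsf: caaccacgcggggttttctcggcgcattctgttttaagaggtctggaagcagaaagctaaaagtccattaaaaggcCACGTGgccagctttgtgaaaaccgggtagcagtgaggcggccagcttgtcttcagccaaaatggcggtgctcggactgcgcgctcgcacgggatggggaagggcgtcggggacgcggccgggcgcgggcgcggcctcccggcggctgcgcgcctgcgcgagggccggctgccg
Unc13a: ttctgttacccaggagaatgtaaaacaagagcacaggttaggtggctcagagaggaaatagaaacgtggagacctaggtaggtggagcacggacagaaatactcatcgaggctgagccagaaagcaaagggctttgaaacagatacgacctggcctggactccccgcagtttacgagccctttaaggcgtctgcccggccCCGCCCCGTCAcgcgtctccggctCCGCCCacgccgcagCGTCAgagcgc
The Syn1 window held the full TGACGTCA, 151 bases from the start, a motif present in 1.55% of the 32851 windows of that length in the table. Its 2 matches to the core, one on each strand, lie in this element. Syn2 held 2 GC boxes and Unc13a held 2 GC boxes and 2 cores. A GC box is present in 32.7% of all windows and the core in 17.8%. Nsf held 1 E-box, present in 6.02% of all windows. Of the other genes, Syt1 had 1 GC box and 2 CAAT boxes, a motif found in 33.8% of all windows, and Synj1 had no match. The GC content was 68.0% for Syn1, 61.2% for Syn2, 66.0% for Nsf and 58.0% for Unc13a, beside a median of 52.4% over all windows. Syn1, Syn2 and Nsf shared none of these motifs in this window. Syn3 and Snap25 were matched to no window.

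Some arrays stood apart or went against their label, which bears on several results. The 12 arrays labelled KO had a Pon1 level of 10.08 ± 0.19 (SD), near those of the 14 Q192 arrays (10.10 ± 0.14) and the 14 R192 arrays (10.13 ± 0.11), while the 15 WT arrays had 5.19 ± 0.24. The sources used here do not say whether the probes lie in the disrupted part of the gene, and the group is called arrays labelled KO throughout. Xist was high in 3 arrays, labelled KO vehicle replicate 4 and WT 0.35 replicates 1 and 2. The granule neuron markers Gabra6 and Cbln3 and the Purkinje cell markers Calb1 and Pcp2 all had mean levels above the filter (12.61, 12.05, 11.88 and 10.17), and Ttr, which marks choroid plexus, had a mean level of 12.96.

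The genes differed widely in how much they varied over the 55 arrays. The SD of the log2 level was 0.38 for Syn1, 0.24 for Syn2, 0.21 for Unc13a, 0.20 for Nsf, 0.17 for Syt1, 0.16 for Syn3, 0.11 for Synj1 and 0.064 for Snap25, where the median SD of all genes tested was 0.138. The SD of Syn1 was above that of 98.7% of the genes tested, and its levels ran from 8.27 to 9.83. The SD of Snap25 was above that of 0.3% of the genes, and its levels ran from 12.79 to 13.08. Of this set, the synapsin genes Syn1 and Syn2 thus moved most and the SNARE gene Snap25 least.

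In the order of the 12 group means, neighbouring groups rarely differed beyond their spread. Ranking the means keeps such gaps small, so this says nothing about groups far apart in the order. For Syn1 the highest group mean was 9.60 ± 0.19 (SD, n = 6) in WT vehicle and the lowest 8.75 ± 0.19 (n = 4) in R192 vehicle. For Syn2 the highest was 10.63 ± 0.08 (n = 3) in arrays labelled KO at 0.5 and the lowest 10.09 ± 0.10 (n = 4) in R192 vehicle. Unc13a was highest in arrays labelled KO at 0.5, with 9.725 ± 0.15 (n = 3), and lowest in WT at 0.5, with 9.09 ± 0.17 (n = 3). These extremes recurred among the other genes. Arrays labelled KO at 0.5 were also highest for Syt1, with 11.99 ± 0.20 (n = 3), and WT at 0.5 was lowest for Syt1, with 11.60 ± 0.07 (n = 3), and for Nsf, with 11.69 ± 0.08 (n = 3). For 6 of the 8 genes, each of the 11 gaps between neighbours was smaller than the larger SD of the pair. The exceptions were 1 gap for Syt1, where Q192 vehicle lay 0.12 above Q192 at 0.35, and 1 for Unc13a, where R192 vehicle lay 0.22 above WT at 0.5.

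**Figure D1:**
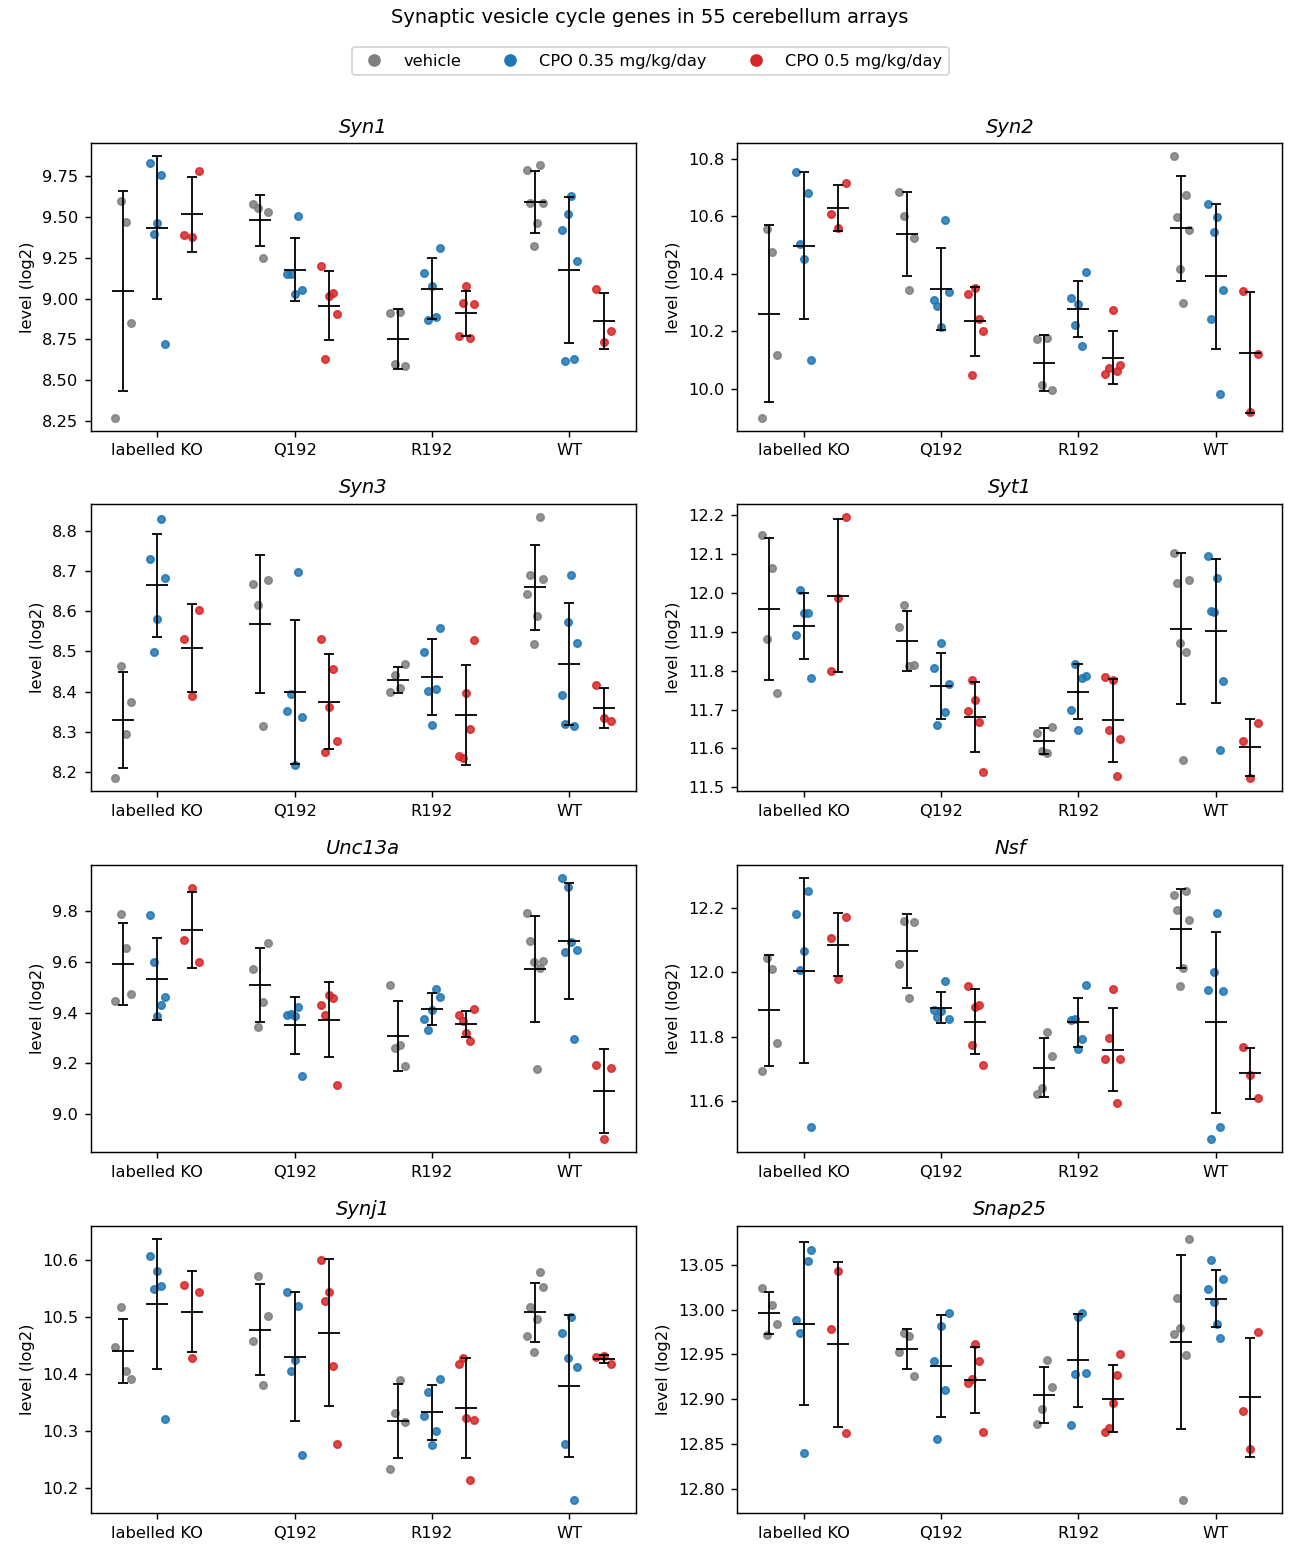
Log2 level of the 8 genes in each of the 55 arrays (points), by genotype (horizontal axis) and treatment (colour), with the group mean (long bar) and SD (whiskers); vertical axes differ between panels. In WT the 3 arrays at 0.5 lie between 8.73 and 9.06 for Syn1, below every WT vehicle array, and between 11.61 and 11.77 for Nsf, while Snap25 spans only 12.79 to 13.08 over all arrays.

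Whether CPO changed these genes was asked first in WT. At 0.5 all 8 had a difference from WT vehicle below 0, beside 53.5% of all genes, and 2 fell past the threshold: Unc13a, the priming factor gene, by 0.46 and Nsf, the SNARE recycling gene, by 0.44 on the log2 scale. The 3 synapsin genes and Syt1 had differences below 0 with an unadjusted p under 0.05 but did not pass, which makes 6 of the 8 at that p beside 21.9% of all genes. Over all genes tested 1.04% passed in this comparison, 0.789% lower, and the median difference was -0.36 for the 8 genes beside -0.01 for all genes. The arrays come from bisected cerebellum, a mix of cell types in which fewer cells of a type and less RNA per cell cannot be told apart. The 3 WT arrays at 0.5 carry only 2 description numbers, and the 6 WT vehicle arrays 4. What these numbers stand for is not stated, and n counts arrays, which may not be separate units.

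Unc13a had 9.19, 8.90 and 9.18 in WT at 0.5, against a lowest level of 9.18, a median of 9.60 and a highest of 9.79 in 6 WT vehicle arrays. The treated arrays were all below the vehicle mean, but WT vehicle replicate 4 reached down to them, so the groups overlapped. The difference was -0.46 (SE 0.108, limma adjusted p = 0.0323). Nsf had 11.77, 11.68 and 11.61 in WT at 0.5, against a lowest level of 11.96, a median of 12.18 and a highest of 12.25 in WT vehicle. These groups did not overlap. The difference was -0.44 (SE 0.118, adjusted p = 0.0474).

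The synapsin genes lay lower by amounts that did not pass. Syn1 had 9.06, 8.73 and 8.80 in WT at 0.5, against a lowest level of 9.32, a median of 9.59 and a highest of 9.82 in WT vehicle, and the groups did not overlap. Its difference of -0.72 (SE 0.216, limma adjusted p = 0.0671) was the largest in size of the 8 and also the least precise. Syn2 had 10.34, 9.92 and 10.12 in WT at 0.5, against 10.30, 10.58 and 10.81 as the lowest, median and highest in WT vehicle, with overlap in 1 array of WT at 0.5. Its difference was -0.42 (SE 0.131, adjusted p = 0.0711). Syn3 had 8.42, 8.33 and 8.33 in WT at 0.5, against 8.52, 8.66 and 8.83 as the lowest, median and highest in WT vehicle. These did not overlap, and the difference was -0.29 (SE 0.0954, adjusted p = 0.0816).

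Among the remaining genes, Syt1 had 11.62, 11.52 and 11.67 in WT at 0.5, against 11.57, 11.95 and 12.10 as the lowest, median and highest in WT vehicle. The groups overlapped through WT vehicle replicate 4, and the difference was -0.30 (SE 0.0934, limma adjusted p = 0.0727). Synj1 had 10.43, 10.43 and 10.42 in WT at 0.5, against 10.44, 10.51 and 10.58 as the lowest, median and highest in WT vehicle. The groups did not overlap, yet the difference was only -0.07 with a 95% interval from -0.21 to 0.07. For Snap25 the difference was -0.06, with an interval from -0.16 to 0.04. In all, 4 of the 8 genes had groups that did not overlap (Syn1, Syn3, Nsf and Synj1), all lower in WT at 0.5, beside 13.2% of all genes in either direction.

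The other probe sets of Unc13a did not all follow the one used. Of these, 1, which correlated with it at r = 0.89 over the 55 arrays, differed by -0.40 in WT at 0.5 (SE 0.0980, limma adjusted p = 0.0351). The other, with r = 0.23, differed by -0.15 (SE 0.0888, adjusted p = 0.315). The count of 2 genes in WT at 0.5 rested on single arrays, and the count over all 14949 genes moved with it. Of the 8 genes, 0 passed without WT 0.5 replicate 1, 2 or 3 (27, 0 and 4 of all genes) or WT vehicle replicate 1, 2, 5 or 6 (26, 4, 1 and 2 of all genes). Without WT vehicle replicate 4, 5 passed (834 of all genes), and without KO 0.35 replicate 5, 4 passed (489 of all genes). On date 1 alone, which holds 1 of the 3 treated arrays, the differences of Unc13a and Nsf were -0.50 and -0.36, and on date 2 alone they were -0.41 and -0.50, with 0 genes passing on either. Markers of inhibitory interneurons moved with these genes: the mean of 9 markers was 9.63 ± 0.09 (SD) over the 3 WT arrays at 0.5 and 9.81 ± 0.08 over the 6 WT vehicle arrays, and 6 of the 9 were lower (median -0.20, 1 passing). With that mean as a covariate, a fit chosen after seeing the data, 0 of the 8 genes passed, beside 19 of all 14949 genes. Unc13a had -0.42 (limma adjusted p = 0.0571) and Nsf -0.30 (adjusted p = 0.0563) in that fit. Of the interneuron markers, Pvalb and Gad2 are also in the Purkinje cell list and Slc6a5 in that of brainstem and midbrain neurons. Slc32a1 is also in the wider vesicle cycle list described below. All 6 markers of choroid plexus were lower as well (median -0.41, 0 passing), as were 11 of 12 of granule neurons (-0.19) and 7 of 11 of oligodendrocytes (-0.17). Other lists lay more to the higher side, with 6 of 9 Purkinje cell markers (+0.14) and 5 of 9 microglia markers (+0.12) above 0. In these last 4 lists 0 passed.

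**Figure D2:**
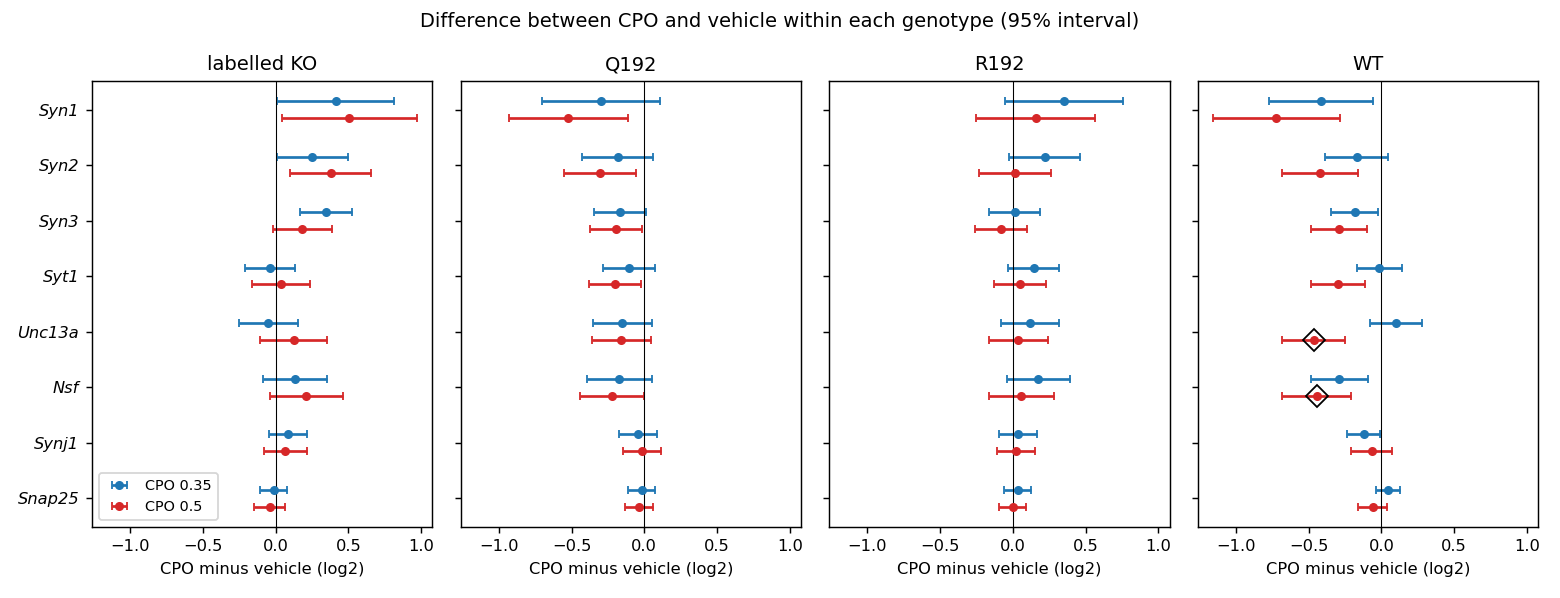
Difference from vehicle on the log2 scale (horizontal axis) of each gene at CPO 0.35 (blue) and 0.5 (red) within each genotype, with its 95% interval; an open diamond marks a limma adjusted p under 0.05. Only Unc13a (-0.46) and Nsf (-0.44) in WT at 0.5 carry a diamond, and the signs for Syn1 run from +0.51 in arrays labelled KO to -0.72 in WT at 0.5.

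At 0.35 in WT none of the 8 genes passed (limma, 0 of 8, with 4 at an unadjusted p under 0.05), where 0.00669% of all genes passed and 20.3% had such a p. Nsf had a lowest level of 11.48, a median of 11.94 and a highest of 12.18 in WT at 0.35, against 11.96, 12.18 and 12.25 in WT vehicle, and the groups overlapped. Its difference was -0.29 (SE 0.0969, adjusted p = 0.125). Syn1 had 8.62, 9.325 and 9.63 as the lowest, median and highest in WT at 0.35, against 9.32, 9.59 and 9.82 in WT vehicle. The spread at 0.35 was wide, with replicates 2 and 5 at 8.62 and 8.63, and these arrays were also the lowest of that group for Nsf. The difference of Syn1 was -0.41 (SE 0.178, adjusted p = 0.183). Syn3 differed by -0.19 (SE 0.0787, adjusted p = 0.18) and Synj1 by -0.12 (SE 0.0572, adjusted p = 0.216). Without WT 0.35 replicate 4 the count was 1 of 8 (1328 of all 14949 genes), and on date 2 alone it was 3 (2043 of all genes). Markers of several cell types lay mostly to 1 side in this comparison, with 0 passing: granule neurons 12 of 12 higher (median +0.39) and Purkinje cells 8 of 9 higher (+0.29), and brainstem and midbrain neurons 16 of 16 lower (-0.42), oligodendrocytes 11 of 11 lower (-0.41), microglia 9 of 9 lower (-0.29), vascular cells 6 of 6 lower (-0.24) and interneurons 7 of 9 lower (-0.23). Their part in the differences above was not tested beyond the covariate fits.

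The WT arrays at the 2 doses were then compared with each other. Unc13a fell at 0.5 relative to 0.35, where 1.46% of all genes passed, and it was the only one of the 8 to pass (3 had an unadjusted p under 0.05, beside 20.6% of all genes). Its levels in WT at 0.5 (9.19, 8.90 and 9.18) were all below those in WT at 0.35, which had a lowest level of 9.29, a median of 9.66 and a highest of 9.93. The groups did not overlap, as for 6.01% of all genes. The difference was -0.57 (SE 0.108, limma adjusted p = 0.00841). Its closer probe set gave -0.42 (SE 0.0981, adjusted p = 0.0246) and the other -0.24 (SE 0.0889, adjusted p = 0.113). Relative to vehicle, Unc13a thus had a difference of +0.10 at 0.35 and of -0.46 at 0.5, whereas Nsf was lower than vehicle at both doses. Syt1 differed between the doses by -0.28 (SE 0.0935, adjusted p = 0.0828) and Snap25 by -0.11 (SE 0.0499, adjusted p = 0.209). The count was 0 without WT 0.5 replicate 2 (1 of all 14949 genes) and 2 without WT 0.35 replicate 5 (1418 of all genes). Without the 3 arrays of high Xist it was 0, as for all genes, and Unc13a had -0.52 (limma adjusted p = 0.0842). Granule neuron markers moved with it: all 12 were lower in WT at 0.5 than at 0.35 (median -0.56, 0 of 12 passing), and with their mean level as a covariate Unc13a differed by -0.39 (adjusted p = 0.182). Markers of brainstem and midbrain neurons (15 of 16, median +0.40, 0 passing), oligodendrocytes (11 of 11, +0.30, 0 passing) and microglia (9 of 9, +0.31, 1 passing) were higher at 0.5. With the interneuron mean as a covariate Unc13a differed by -0.59 (limma adjusted p = 0.00162) and 5 of the 8 passed, beside 1350 of all genes.

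In arrays labelled KO the synapsin genes lay on the other side of vehicle. None of the 8 genes passed at either dose (limma, 0 of 8, with 3 at an unadjusted p under 0.05 at 0.35, beside 6.44% of all genes, and 2 at 0.5, beside 12.8%), and 0.0% of all genes passed at either. Syn3 had 8.73, 8.50, 8.58, 8.83 and 8.68 at 0.35, against 8.18, 8.46, 8.30 and 8.38 in vehicle, and the groups did not overlap, as for 0.829% of all genes. Its difference at 0.35 was +0.35 (SE 0.0885, adjusted p = 0.66). At 0.5 it was +0.18, with an interval from -0.02 to 0.39. Syn2 had 10.61, 10.56 and 10.72 at 0.5, against 9.90, 10.55, 10.48 and 10.12 in vehicle, just without overlap, as for 8.93% of all genes. Its difference was +0.38 at 0.5 (SE 0.14, adjusted p = 0.387) and +0.25 at 0.35 (SE 0.121, adjusted p = 0.66).

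Among the 12 groups, Syn1 had its largest SD (0.61, n = 4) in the vehicle arrays labelled KO. Its level was 8.27, 9.60, 9.47 and 8.85 in vehicle, 9.83, 9.39, 9.47, 9.76 and 8.72 at 0.35, and 9.39, 9.38 and 9.78 at 0.5. The vehicle array at 8.27 was the lowest of all 55 and the one at 9.60 lay among the treated arrays. The difference from vehicle was +0.41 at 0.35 (SE 0.201, limma adjusted p = 0.66) and +0.51 at 0.5 (SE 0.231, adjusted p = 0.387). With the first principal axis of all genes as a covariate, the difference at 0.5 was -0.0045, so its sign turned. Unc13a, Syt1 and Snap25 differed from vehicle by -0.05, -0.04 and -0.01 at 0.35 and by +0.12, +0.03 and -0.04 at 0.5. Interneuron markers lay on the same side as the synapsin genes, 7 of 9 above 0 at 0.35 (median +0.21) and 8 of 9 at 0.5 (+0.28), and at 0.35 so did 11 of 11 oligodendrocyte markers (+0.22) and 15 of 16 brainstem and midbrain markers (+0.27). Other lists lay on the opposite side. At 0.35, 11 of 12 granule neuron markers (-0.13) and 7 of 9 Purkinje cell markers (-0.11) were below 0, though at 0.5 9 of 12 (+0.14) and 7 of 9 (+0.09) were above. All 6 choroid plexus markers were below 0 at 0.5 (-0.39). In each of these lists 0 passed.

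The difference between these responses was tested directly, as the effect of CPO at 0.5 in arrays labelled KO minus that in WT. It passed for 5 of the 8 genes, all above 0, where 9.2% of all genes passed and 5.63% were above 0 and passed: the 3 synapsin genes, Unc13a and Nsf. For Syn1 it was +1.23 (SE 0.317, limma adjusted p = 0.037), from group means of 9.52 ± 0.23 (SD, n = 3) at 0.5 and 9.05 ± 0.61 (n = 4) in vehicle among arrays labelled KO, beside 8.86 ± 0.17 (n = 3) at 0.5 and 9.60 ± 0.19 (n = 6) in vehicle in WT. For Syn2 it was +0.80 (SE 0.192, adjusted p = 0.037), for Syn3 +0.48 (SE 0.14, adjusted p = 0.0385), for Unc13a +0.59 (SE 0.158, adjusted p = 0.037) and for Nsf +0.66 (SE 0.172, adjusted p = 0.037). Each is the sum of a lower level in WT at 0.5 and a higher mean in arrays labelled KO at 0.5, and it rests on the same WT arrays as the comparison within WT. Syt1 had +0.33 (SE 0.137, adjusted p = 0.0924), so that 6 of the 8 had an unadjusted p under 0.05, beside 31.7% of all genes. Synj1 had +0.13 (interval -0.07 to 0.34) and Snap25 +0.02 (interval -0.13 to 0.17). The median was +0.53 over the 8 genes beside +0.05 over all genes. Some marker lists moved the same way: interneuron markers were above 0 for 8 of 9 (median +0.33, 3 passing) and granule neuron markers for 11 of 12 (median +0.32, 0 passing). So were 7 of 11 oligodendrocyte markers (+0.32) and 12 of 16 brainstem and midbrain markers (+0.16), with 0 passing. Below 0 were 6 of 9 Purkinje cell markers (-0.08), 6 of 9 of microglia (-0.15) and 5 of 9 of astrocytes and Bergmann glia (-0.08), with 0 passing.

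These 5 calls were lost in several fits in which 0 of all 14949 genes passed, and the cause was not tested. With the interneuron mean as a covariate, a fit chosen after seeing the data, 0 of the 8 passed and the 5 differences stayed above 0. Syn1 had +0.59, Syn2 +0.49, Unc13a +0.48 and Nsf +0.31 (limma adjusted p = 0.426 each), and Syn3 had +0.27 (adjusted p = 0.434). The count was 0 without KO 0.5 replicate 1 or 3, KO vehicle replicate 1 or 4, WT 0.5 replicate 2 or 3, or WT vehicle replicate 1 or 5. It was also 0 without the 3 arrays of high Xist, where the 5 differences ran from +0.50 for Syn3 to +1.18 for Syn1 (limma adjusted p 0.0582 to 0.0587). In each of these fits 0 of all genes passed. The closer probe set of Unc13a gave +0.50 (SE 0.144, limma adjusted p = 0.0384) and the other -0.01 (SE 0.13, adjusted p = 0.95). At 0.35 the corresponding difference passed for 0 of the 8 (limma, 5 above 0 at an unadjusted p under 0.05, beside 16.1% of all genes, and 0.00669% of all genes passing): Syn1 had +0.83 (SE 0.268, adjusted p = 0.0827), Syn3 +0.53 (SE 0.118, adjusted p = 0.0756), Syn2 +0.42 (SE 0.162, adjusted p = 0.11), Nsf +0.42 (SE 0.146, adjusted p = 0.0898) and Synj1 +0.21 (SE 0.086, adjusted p = 0.128). Without KO 0.35 replicate 5, an array that shares its description number with R192 arrays, 5 of the 8 passed at 0.35. The count over all 14949 genes rose as well in that fit, to more than the 1523 found without WT 0.35 replicate 4. The count at 0.35 was 4 without KO vehicle replicate 2 (1406 of all genes) and 3 without WT 0.35 replicate 4 (1523 of all genes). It was 1 without KO 0.35 replicate 2 or WT vehicle replicate 1 (8 and 757 of all genes).

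In Q192 all 8 genes had a difference below 0 at both doses, beside 49.6% of all genes at 0.35 and 51.2% at 0.5. None passed (limma, 0 of 8 at each, with 0 at an unadjusted p under 0.05 at 0.35, beside 2.05% of all genes, and 5 at 0.5, beside 13.2%), where 0.0% of all genes passed at either dose. Syn1 had 9.20, 8.63, 9.02, 9.03 and 8.91 at 0.5, against 9.58, 9.56, 9.25 and 9.53 in vehicle. These did not overlap, and the difference was -0.52 (SE 0.203, adjusted p = 0.332). Syt1 had 11.70, 11.78, 11.73, 11.67 and 11.54 at 0.5, against 11.91, 11.97, 11.81 and 11.81 in vehicle, also without overlap, as for 9.35% of all genes. The difference was -0.20 (SE 0.0877, adjusted p = 0.342). Syn2 differed by -0.31 (SE 0.123, adjusted p = 0.335), Syn3 by -0.19 (SE 0.0897, adjusted p = 0.358) and Nsf by -0.22 (SE 0.11, adjusted p = 0.377). Between Q192 and WT the effect of CPO at 0.5 differed for 0 of the 8 (limma, 1 at an unadjusted p under 0.05, beside 2.31% of all genes), Unc13a having +0.31 (SE 0.148, adjusted p = 1). At 0.35 the count was 0 too (0 at an unadjusted p under 0.05, beside 4.4% of all genes), and 0.0% of all genes passed at either dose. All 12 granule neuron markers lay below 0 in Q192 too, at 0.35 (median -0.12) and at 0.5 (median -0.45), as did 11 of 11 oligodendrocyte markers at 0.35 (median -0.15), with 0 passing.

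In R192 the differences from vehicle were at most 0.35 in size. None passed at 0.35 or 0.5 (limma, 0 of 8 at each, 0 at an unadjusted p under 0.05, beside 3.58% of all genes at 0.35 and 1.02% at 0.5, and 0.0% of all genes passing at either). All 8 had a difference above 0 at 0.35 (median +0.13), beside 54.9% of all genes, and 6 did at 0.5 (median +0.03), beside 52.6%. Syn1 had 8.91, 8.60, 8.91 and 8.58 in vehicle, 9.16, 8.87, 9.08, 8.89 and 9.31 at 0.35, and 8.77, 8.97, 9.08, 8.76 and 8.97 at 0.5, so that the groups overlapped at each dose. At 0.35 all 12 granule neuron markers (median +0.28) and all 9 Purkinje cell markers (+0.12) lay above 0 as well, with 0 passing. The interval of Syn1 at 0.5 ran from -0.25 to 0.56. The effect of CPO at 0.5 in R192 minus that in WT was above 0 for all 8 genes, beside 53.1% of all genes, and passed for 0 (limma, 5 at an unadjusted p under 0.05, beside 14.3% of all genes, with 0.0201% passing): Syn1 had +0.88 (SE 0.297, adjusted p = 0.225), Unc13a +0.50 (SE 0.148, adjusted p = 0.2), Nsf +0.50 (SE 0.161, adjusted p = 0.225), Syn2 +0.44 (SE 0.18, adjusted p = 0.283) and Syt1 +0.35 (SE 0.128, adjusted p = 0.255). At 0.35 0 passed, beside 0.0% of all genes, and the 3 values with an unadjusted p under 0.05, beside 14.0% of all genes, were +0.77 for Syn1 (SE 0.268, adjusted p = 0.317), +0.46 for Nsf (SE 0.146, adjusted p = 0.317) and +0.39 for Syn2 (SE 0.162, adjusted p = 0.319).

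On the mean of the 4 genotypes 0 of the 8 genes passed at either dose (limma, 0 at an unadjusted p under 0.05 at 0.35, beside 1.83% of all genes, and 3 at 0.5, beside 4.84%), as 0.0% of all genes did. At 0.5 Syn3 differed by -0.10 (SE 0.0471), Syt1 by -0.10 (SE 0.0461) and Unc13a by -0.115 (SE 0.0531), each with an adjusted p of 0.991. Syn1, with +0.51 in arrays labelled KO and -0.72 in WT, had a mean difference of -0.15 (interval -0.36 to 0.07). Between the doses 0 of the 8 passed or had an unadjusted p under 0.05 in arrays labelled KO, Q192 or R192 (limma). Of all genes, 0.0% passed and 3.73% had such a p in arrays labelled KO, 0.0468% and 6.12% in Q192, and 0.0% and 2.27% in R192.

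Between genotypes, on the mean of the 3 treatments, the 1 contrast in which any of the 8 passed was R192 against arrays labelled KO. There 6 of the 8 fell in R192, namely Syn1, Syn2, Syt1, Unc13a, Nsf and Synj1, where 5.61% of all genes passed and 2.96% passed as lower. The median difference was -0.23 over the 8 genes beside +0.01 over all genes. Syn3 and Snap25 did not pass. With Snap25, 7 had an unadjusted p under 0.05, beside 22.4% of all genes. The groups overlapped for each of the 8 genes, as they did for all but 0.0334% of genes.

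Syt1 had a lowest level of 11.53, a median of 11.65 and a highest of 11.82 in 14 R192 arrays, against 11.74, 11.95 and 12.19 in 12 arrays labelled KO. All 14 R192 arrays lay below the mean of the arrays labelled KO and 9 below every one of them, and the difference was -0.28 (SE 0.0515, limma adjusted p = 0.00111). Synj1 had 10.21, 10.32 and 10.43 in R192, against 10.32, 10.53 and 10.61 in arrays labelled KO, with a difference of -0.16 (SE 0.0382, adjusted p = 0.0116). For Synj1, 6 R192 arrays were below all arrays labelled KO, although its whole range was narrow. Unc13a had 9.19, 9.37 and 9.51 in R192, against 9.39, 9.60 and 9.89 in arrays labelled KO, and differed by -0.24 (SE 0.0593, adjusted p = 0.0113). Its closer probe set gave -0.22 (SE 0.0540, adjusted p = 0.0108) and the other -0.05 (SE 0.0490, adjusted p = 0.557).

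Syn1, Syn2 and Nsf overlapped more. Syn1 had 8.58, 8.91 and 9.31 as the lowest, median and highest in R192, against 8.27, 9.43 and 9.83 in arrays labelled KO, and differed by -0.40 (SE 0.119, limma adjusted p = 0.0347). Syn2 had 9.996, 10.16 and 10.41 in R192, against 9.90, 10.53 and 10.75 in arrays labelled KO, and differed by -0.29 (SE 0.0721, adjusted p = 0.0124). Nsf had 11.59, 11.78 and 11.96 in R192, against 11.52, 12.03 and 12.25 in arrays labelled KO, and differed by -0.21 (SE 0.0648, adjusted p = 0.042). For each of these genes all 14 R192 arrays lay below the mean of the arrays labelled KO, but 0 lay below all of them. Snap25 differed by -0.06 (SE 0.0275, adjusted p = 0.146). The interval for Syn3 ran from -0.20 to 0.01. The count of 6 was 3 without KO 0.5 replicate 3, where 365 of all 14949 genes passed. Leaving out in turn each array of R192 or labelled KO, Nsf lost its call in 17 of 26 fits and Syn1 in 9. On date 1 alone 0 of the 8 passed, beside 10 of all 14949 genes. All differences of the 6 genes were below 0 on each date alone. Date 2 holds 1 array labelled KO at 0.5, so no count is given for it.

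In the other genotype contrasts none of the 8 passed (limma), where 0.375% of all genes passed in arrays labelled KO against WT, 0.455% in Q192 against WT, 0.87% in R192 against WT, 0.401% in Q192 against arrays labelled KO and 0.0736% in R192 against Q192. Against WT, R192 had 4 values with an unadjusted p under 0.05, all below 0, beside 12.9% of all genes: Syn1 with -0.29 (SE 0.116, adjusted p = 0.281), Syn2 with -0.20 (SE 0.0702, adjusted p = 0.198), Syt1 with -0.13 (SE 0.0501, adjusted p = 0.257) and Synj1 with -0.10 (SE 0.0372, adjusted p = 0.198). Arrays labelled KO had 2 against WT, both above 0, beside 4.88% of all genes: Syt1 with +0.15 (SE 0.0526, adjusted p = 0.592) and Unc13a with +0.15 (SE 0.0606, adjusted p = 0.848). In Q192 against arrays labelled KO, Syt1 had -0.18 (SE 0.0521, adjusted p = 0.128) and Unc13a -0.20 (SE 0.06, adjusted p = 0.203), the 2 with an unadjusted p under 0.05, beside 9.53% of all genes. These contrasts share the arrays labelled KO. Without KO 0.5 replicate 1, 1 of the 8 passed in Q192 against arrays labelled KO, beside 68 of all 14949 genes. In R192 against Q192 the 4 such values, all below 0, beside 9.97% of all genes, were -0.28 for Syn1 (SE 0.115, adjusted p = 0.468), -0.21 for Syn2 (SE 0.0695, adjusted p = 0.427), -0.16 for Nsf (SE 0.0624, adjusted p = 0.468) and -0.13 for Synj1 (SE 0.0368, adjusted p = 0.363). For Q192 against WT 0 of the 8 had an unadjusted p under 0.05, beside 4.7% of all genes, and the 8 differences ran from -0.05 to 0.04.

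**Figure D3:**
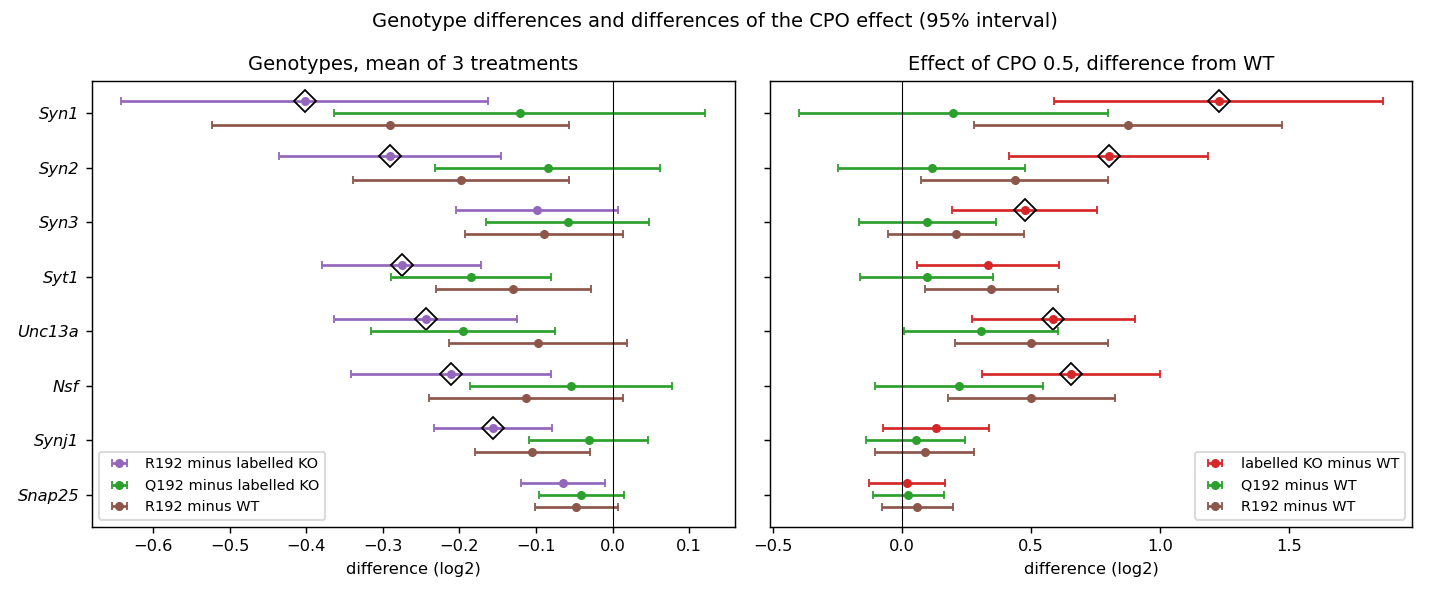
Left, differences between genotypes on the mean of 3 treatments; right, the effect of CPO at 0.5 in each genotype minus that in WT, both on the log2 scale (horizontal axes) with 95% intervals. An open diamond marks a limma adjusted p under 0.05, seen for 6 genes in R192 minus arrays labelled KO (-0.16 to -0.40) and for 5 genes in arrays labelled KO minus WT (+0.48 to +1.23).

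A wider list of the vesicle cycle, 63 other genes of which 60 were tested, was described beside the 8 genes. In WT at 0.5, 50 of the 60 lay below vehicle, beside 53.5% of all genes (median -0.18, beside -0.01), and 2 fell past the threshold, where 1.04% of all genes passed and 0.789% passed as lower. Both are genes of endocytosis: Ap2b1, a subunit of the clathrin adaptor, by 0.41 (SE 0.102, limma adjusted p = 0.0372) and Itsn1, an endocytic scaffold gene, by 0.28 (SE 0.0646, adjusted p = 0.0323). Itsn1 also fell in WT at 0.5 relative to 0.35, by 0.24 (SE 0.0646, adjusted p = 0.045). By role, the median in WT at 0.5 was -0.31 over 12 vesicle membrane genes, -0.33 over 6 calcium sensor genes, -0.19 over 20 endocytosis genes, -0.10 over 7 fusion genes and -0.03 over 15 priming and active zone genes. Unc13a, itself a priming gene, had -0.46 beside that median of -0.03.

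In R192 against arrays labelled KO, 9 of the 60 fell and 0 rose (median -0.12, beside +0.01 for all genes), where 5.61% of all genes passed and 2.96% passed as lower. Ap2b1 fell by 0.31 (SE 0.0565, limma adjusted p = 0.00096) and Napa, which encodes the alpha-SNAP that recruits NSF to SNARE bundles, by 0.21 (SE 0.0529, adjusted p = 0.0133). Napa also fell in R192 against WT, by 0.28 (SE 0.0515, adjusted p = 0.00083), the 1 passing value of the 60 there. The others were the clathrin heavy chain gene Cltc (-0.12), Dnm3, which encodes a dynamin (-0.16), Dnajc6, which encodes auxilin, a factor of uncoating (-0.21), the coat assembly gene Snap91 (-0.21), Amph (-0.19), the proton pump subunit gene Atp6v0a1 (-0.26) and the calcium sensor gene Syt7 (-0.22). Thus 6 of the 9 belonged to the 20 endocytosis genes, and 0 to the 15 priming and active zone genes. The priming gene Unc13a, outside this list, passed there too, and the roles were not compared by a test.

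In the effect of CPO at 0.5 in arrays labelled KO minus that in WT, 17 of the 60 passed, all above 0 (median +0.32, beside +0.05 for all genes), where 9.2% of all genes passed and 5.63% passed above 0. One of the 17, Slc32a1, is an interneuron marker as well. The 12 with the smallest p were Syt7 (+0.69), Ap2b1 (+0.56), Atp6v0a1 (+0.69), the dynamin gene Dnm1 (+1.00), the synaptophysin gene Syp (+0.78), Itsn1 (+0.33), Ppfia3 (+0.56), the active zone scaffold gene Bsn (+0.70), the calcium sensor gene Syt2 (+0.96), Snap91 (+0.47), the vesicle protein gene Syngr3 (+0.85) and Rph3a (+0.60). Their adjusted p ran from 0.037 for Syt7 to 0.0438 for Rph3a. By role, 5 of 12 vesicle membrane genes, 3 of 6 calcium sensor genes, 6 of 20 endocytosis genes, 3 of 15 priming and active zone genes and 0 of 7 fusion genes passed. These shares were not compared between roles.

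Over the 55 arrays the levels of the 8 genes fell into a close set and looser members. Pearson's r was 0.95 between Syn1 and Syn2, 0.92 between Syn1 and Nsf, 0.87 between Syn2 and Nsf, 0.74 between Syn1 and Syn3 and 0.75 between Nsf and Synj1. Unc13a was closest to Syt1 (0.71), and Snap25 had at most 0.55, with Unc13a. These values describe the arrays, which share their normalization and the group differences above. Over the 12 group means r was 0.98 for Syn1 and Syn2 and 0.92 for Syt1 and Unc13a.

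**Figure D4:**
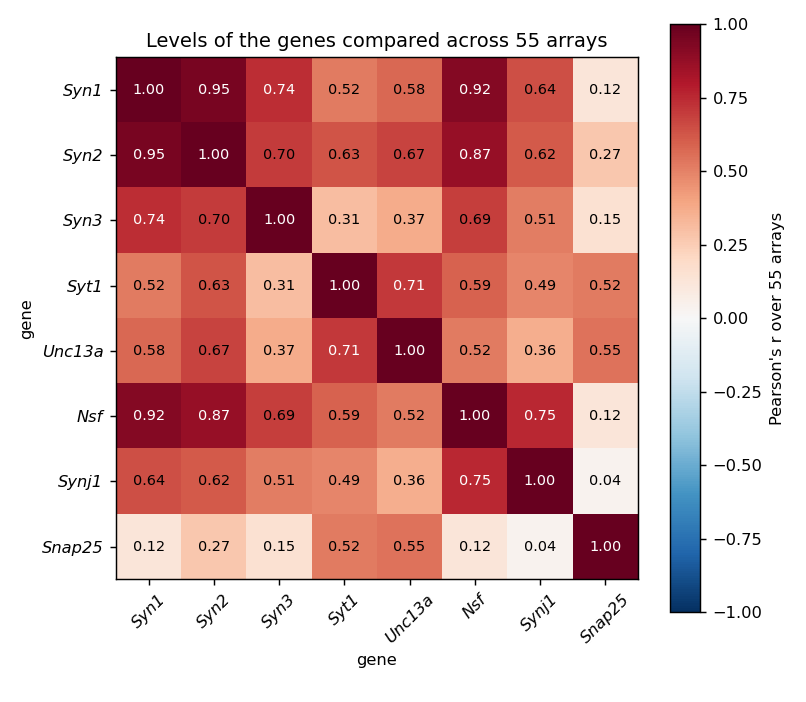
Pearson's r of the log2 levels of each pair of the 8 genes over the 55 arrays, both axes listing the genes. Syn1, Syn2 and Nsf form the darkest cells (0.87 to 0.95) and Snap25 the palest, down to 0.04 with Synj1.

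For each gene the 2 tested genes with the most similar pattern over the 55 arrays were named. For Syn1 they were Spock2 and App (r 0.97 each), for Syn2 the dynamin gene Dnm1 (0.97) and the calcium pump gene Atp2b2 (0.95), and for Nsf the genes Add1 (0.95) and Got1 (0.94). For Syn3 they were Arhgap39 (0.82) and Plcg1 (0.80), for Synj1 the dynein heavy chain gene Dync1h1 (0.85) and Atrn (0.84), and for Syt1 the genes Ywhaz (0.88) and Celf2 (0.85). For Unc13a they were Otud7a (0.91) and Ncoa5 (0.88), and for Snap25 Hnrnpm (0.77) and Rgs7bp (0.75). Dnm1 is the 1 gene among these that is in the wider vesicle cycle list.

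The first principal axis of all tested genes, which held 27.5% of their variance, ran with part of the set. Its r over the 55 arrays was 0.95 with Syn1, 0.91 with Syn2, 0.86 with Nsf, 0.67 with Syn3, 0.59 with Synj1, 0.51 with Unc13a, 0.37 with Syt1 and -0.04 with Snap25. The arrays lowest on it were KO vehicle replicate 1, with a score of -28.9, and KO 0.35 replicate 5, with -21.6, which had Syn1 levels of 8.27 and 8.72. With this axis as a covariate, 0 of the 8 genes passed in WT at 0.5 (Unc13a -0.35, limma adjusted p = 0.151, and Nsf -0.21, adjusted p = 0.265) and 0 in the effect at 0.5 in arrays labelled KO minus that in WT (Syn1 +0.20, adjusted p = 0.98). Of all 14949 genes, 8 and 0 passed in these comparisons. Since the axis is drawn from genes that include these, such a fit also takes out part of what is compared. In R192 against arrays labelled KO, Syt1 kept -0.27 (adjusted p = 0.00199) and Unc13a -0.19 (adjusted p = 0.0333) in that fit, and Nsf had -0.11 (adjusted p = 0.132).

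**Figure D5:**
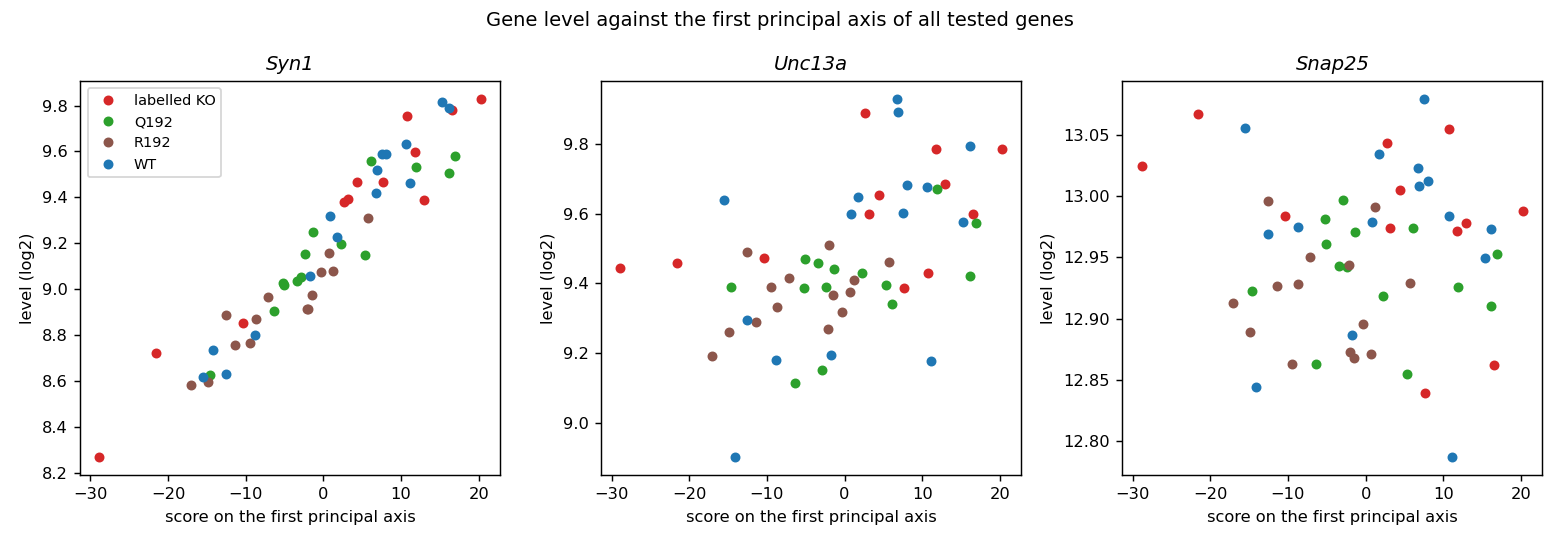
Log2 level (vertical axes) of Syn1, Unc13a and Snap25 against the score of each of the 55 arrays on the first principal axis of all tested genes (horizontal axes), coloured by genotype. Syn1 follows the axis (r = 0.95), Unc13a loosely (0.51), and Snap25 does not (-0.04).

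Marker lists of cerebellar cell types followed different members of the set, and several lists followed the same ones. Granule neurons are the most numerous neurons of the cerebellum and the source of its parallel fibres. The mean of 12 markers was 10.61 ± 0.56 (SD) over the 3 WT arrays at 0.5 and 10.82 ± 0.76 over the 6 WT vehicle arrays, ranging from 9.42 to 11.67 among the vehicle arrays. In WT at 0.5 against vehicle 11 of the 12 were lower (median -0.19, 0 passing), and in R192 against arrays labelled KO 12 of 12 were (median -0.20, 0 passing). Other lists had passing members in that genotype contrast: 2 of 9 for microglia (8 of 9 higher, median +0.16), 2 of 9 for astrocytes and Bergmann glia (5 of 9 higher), 1 of 9 for interneurons (7 of 9 lower, -0.12), 1 of 9 for Purkinje cells (7 of 9 lower, -0.17) and 1 of 6 for vascular cells (4 of 6 higher). Over the 55 arrays the granule neuron mean had an r of 0.72 with Unc13a, 0.66 with Syt1, 0.60 with Snap25, 0.49 with Syn2 and at most 0.28 with the rest. The interneuron mean had an r of 0.80 with Nsf, 0.76 with Syn1, 0.68 with Synj1 and 0.66 with Syn2. It had 0.62 with Syn3 and at most 0.20 with the rest. The Purkinje cell mean had an r of 0.61 with Unc13a, 0.61 with Snap25, 0.58 with Syt1 and at most 0.30 with the rest. For astrocytes and Bergmann glia r was 0.61 with Syn1, 0.59 with Nsf, 0.55 with Syn2 and at most 0.31 with the rest. The microglia mean had -0.60 with Unc13a, -0.58 with Snap25 and -0.51 with Syt1. For oligodendrocytes r was 0.49 with Nsf, 0.47 with Syn1, 0.46 with Syn3 and -0.41 with Snap25. With the granule neuron mean as a covariate, Unc13a differed by -0.40 (limma adjusted p = 0.0224) and Nsf by -0.43 (adjusted p = 0.0493) in WT at 0.5, and the 5 differences between arrays labelled KO and WT at 0.5 kept adjusted p-values of 0.0438 to 0.0449. In R192 against arrays labelled KO, Syn1 (-0.36, adjusted p = 0.0937) and Nsf (-0.19, adjusted p = 0.101) did not pass in that fit. With the interneuron mean as a covariate all 6 genes passed in R192 against arrays labelled KO. The values ran from -0.12 for Synj1 (limma adjusted p = 0.0174) to -0.28 for Syt1 (adjusted p = 0.00118). The share of all genes passing in that fit is not given here, and without the covariate it was 5.61%. Markers of brainstem and midbrain neurons, of which 17 were measured and 16 lay above the filter, averaged 8.35 ± 0.13 over the WT arrays at 0.5, against 7.83 ± 0.56 at 0.35 and 8.30 ± 0.41 with vehicle. With their mean level as a covariate 6 of the 8 genes passed in WT at 0.5 against vehicle, beside 979 of all 14949 genes. Between the doses 0 passed, beside 8 of all genes.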

How the data were processed

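Cerebellum RNA of 55 samples was hybridised to 1 array each. The deposited values are log2 levels: per the submitters' processing notes, the authors used Affymetrix Expression Console 1.1 with RMA. No source used here names the log base; base 2 was inferred from the range of the values (1.15 to 14.80). No further normalization was applied. The number of arrays limits the precision.

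Of 35557 probe sets, 21789 had 1 gene symbol, 1621 several and 12147 none. Of those with 1, 21698 matched RefSeq's GRCm38.p6 genes, with 0 symbols updated. Where a gene had more than 1 probe set (999 genes), the highest mean decided. Genes whose mean exceeded 6.44, the 25th percentile, were kept, and 4 sex-linked genes were left out, leaving 14949. No repeated array was found: the smallest root mean square difference within a group was 0.1395.

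All arrays entered 1 fit with limma 3.58.1 in R 4.3.3, with a mean per group, the array date (27 and 28 arrays) as a covariate and a variance trend. The number in the description, of which there were 36, was a random block (duplicateCorrelation, 0.131). Of these numbers, 17 were shared by several arrays and covered 36 arrays, and the labels do not say what they stand for. The 3 arrays of WT at 0.5 held 2 numbers, as did the 3 labelled KO at 0.5, and the 6 WT vehicle arrays held 4. Group sizes and overlap count arrays, not numbers. The fit had 42 residual degrees of freedom. Tests were two-sided, with Benjamini-Hochberg adjustment over all 14949 genes inside each of 26 comparisons. Passing means an adjusted p under 0.05. Counts at an unadjusted p under 0.05 are given too. The fit was tested on simulated data.

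Arrays of the same replicate number in the titles were compared as possible pairs. Only for R192 at 0.35 against vehicle did all 4 deviate in the same direction (r 0.194 to 0.467). This does not show that they are pairs, and no label states it. A replicate block changed no call there. Alternatives covered the date, the random block, the filter, array weights, scaling, tissue markers (interneuron markers added after seeing the data), the first principal axis and each array left out. Differences of marker lists are medians over genes. Promoter sequences are RefSeq's, drawn with Python 3.11.15.

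Named were all 9 genes, with SE and adjusted p where they passed or had an unadjusted p under 0.05, those of the wider list that passed (the 12 smallest p where more did), and the 2 genes most alike in pattern. The genes and lists were chosen with earlier results of these data known.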

Additional observations from a re-analysis of the deposited data

Results flagged for a closer look

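Of 80 sets of gene and group with 4 to 10 arrays, 9 held 1 array far from the others, where chance gives about 1 in 20. In Q192 vehicle, replicate 3 was low for Syn1 (9.25, the others 9.53 to 9.58) and for Syn3 (8.31, the others 8.62 to 8.68). In Q192 at 0.35, replicate 4 was high for Syn1 (9.51, the others 9.03 to 9.15) and for Nsf (11.97, the others 11.86 to 11.88). In the same group replicate 5 was low for Unc13a (9.15, the others 9.39 to 9.42). Replicate 5 of Q192 at 0.5 was also low for Unc13a (9.11, the others 9.39 to 9.47). Synj1 was low in KO 0.35 replicate 5 (10.32, the others 10.55 to 10.61), and Syn2 was high in R192 0.5 replicate 3 (10.27, the others 10.05 to 10.08). Unc13a was low in WT vehicle replicate 4 (9.18, the others 9.58 to 9.79), and without that array 5 of the 8 genes passed in WT at 0.5, beside 834 of all 14949 genes. The mean of the granule neuron markers in that array, 9.42, was also the lowest of its group, where the others had 10.70 to 11.67. Groups of 3 arrays were not searched. Of these, WT at 0.5 had a granule neuron mean of 9.96 in replicate 2, beside 10.91 and 10.96, and replicate 2 also had its lowest Unc13a level, 8.90. Without replicate 2, 0 of the 8 genes and 0 of all genes passed in WT at 0.5 against vehicle.

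The effect of CPO at 0.5 differed between arrays labelled KO and WT for 5 genes by the test of the difference itself: Syn1 (+1.23, limma adjusted p = 0.037), Syn2 (+0.80, adjusted p = 0.037), Syn3 (+0.48, adjusted p = 0.0385), Unc13a (+0.59, adjusted p = 0.037) and Nsf (+0.66, adjusted p = 0.037). With the mean of the interneuron markers as a covariate none of these differences passed (limma adjusted p 0.426 to 0.434), and 0 of all 14949 genes did. Within arrays labelled KO none of the 5 passed at 0.5, and in WT Unc13a and Nsf did.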

How the results depend on the processing

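The 26 counts of passing genes were recomputed under 17 settings, and 407 of 442 stayed within 1.5 times of the reported count. Most of the 26 were reported at 0. Where any gene had passed, the count stayed in 8 of 17 settings for WT at 0.5 against vehicle and 8 for WT at 0.5 against 0.35. It stayed in 15 for R192 against arrays labelled KO and in 12 for the effect at 0.5 in arrays labelled KO minus WT. Counts below are of the 8 genes, by limma. The number of all genes passing moved with them. Outside the fits on 1 date, at most 19 of all 14949 genes passed where a reported count fell to 0. Where a count rose, 82 to 2515 of all genes passed. WT at 0.5 against vehicle (reported 2) gave 6 with no random block, with array quality weights and with brainstem markers as a covariate, 1 with the replicate block and without the level filter, and 0 on date 1 alone, on date 2 alone, with the first principal axis added to the fit and with interneuron markers as a covariate, a setting chosen after seeing the data. WT at 0.5 against 0.35 (reported 1) gave 2 with no random block, with the replicate block and with array quality weights, 5 with interneuron markers as a covariate, and 0 on date 1 alone, on date 2 alone, without the 3 high Xist arrays and with brainstem or granule neuron markers as a covariate. R192 against arrays labelled KO (reported 6) gave 0 on date 1, beside 10 of all genes. Its count also moved on date 2, which holds 1 array labelled KO at 0.5. The effect at 0.5 in arrays labelled KO minus WT (reported 5) gave 0 on date 1, on date 2, without the 3 high Xist arrays and with the axis or interneuron markers as a covariate. Comparisons reported at 0 gave counts with array quality weights: 2 for Q192 at 0.5, 1 on the mean of genotypes at 0.5, 7 for R192 against WT, 4 for Q192 against arrays labelled KO, 4 for R192 against Q192, and 5 for the effect at 0.5 in R192 minus WT. The effect at 0.35 in arrays labelled KO minus WT (reported 0) gave 1 with no random block and 3 on date 2 alone, WT at 0.35 against vehicle gave 3 on date 2 alone, and Q192 against arrays labelled KO gave 1 without the arrays of high Xist. The cause of these moves was not tested. Date 1 holds 1 array of WT at 0.5 and date 2 holds 2.

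Each array of the groups compared was left out in turn, and KO 0.35 replicate 5 in every comparison. The counts were then 0 to 5 for WT at 0.5 against vehicle and 0 to 2 for WT at 0.5 against 0.35. They were 0 to 1 for WT at 0.35 against vehicle. For R192 against arrays labelled KO they were 3 to 6, and for Q192 against arrays labelled KO 0 to 1. In arrays labelled KO minus WT they were 0 to 6 for the effect at 0.5 and 0 to 5 for that at 0.35. These ranges do not cover the other arrays, which share the fit. In the other comparisons these counts were 0 to 0. Of the 1105 single values under the settings, 1002 kept their direction and their side of the threshold, 56 lost a call and 44 gained one. The other 3 turned sign, none of which had passed: Syn1 in arrays labelled KO at 0.5 (-0.0045 with the axis as a covariate), Snap25 in R192 against arrays labelled KO (0.0083 on date 2) and Synj1 in the effect at 0.35 in arrays labelled KO minus WT (-0.0109 on date 1). No label states that arrays of the same replicate number are pairs, and their correlations ran from -0.685 to 0.7.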
